A study of Mus musculus with 6 samples.

Results

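Vomeronasal and taste receptor genes were examined in arrays of bone marrow cells sorted from young and old mice. The set holds the genes whose symbols start with Vmn1r, Vmn2r, Tas1r, Tas2r or Taar (the trace amine-associated receptors) and whose probe was called well above background by the scanner software on 3 or more of the 6 arrays. Of the 307 such receptor genes with a probe on the array, 53 met this condition. Detection across both age groups therefore chose the members, and the counts and signals that describe it below carry no test. Where a gene had several probes the one with the highest mean signal stood for it. The samples were total RNA of bone marrow cells labelled as mesenchymal stem cells, which had been stained and sorted from C57BL/6 mice aged 3 months (young, 3 samples) or 24 months (old, 3 samples). The labels named no treatment, genetic change or sex, no marker used for the sort, and nothing on whether each sample was a separate animal or a pool, so the p-values reflect only how far these samples spread, which may be technical.

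Vmn1r and Vmn2r genes encode the V1R and V2R receptors of the mouse vomeronasal organ, where sensory neurons detect pheromones and other chemical signals of the species. V1R neurons use the G protein subunit Gnai2 and V2R neurons Gnao1, and in both the signal runs through phospholipase C to the channel Trpc2. Tas1r receptors form the sweet and umami receptors of taste cells, Tas2r receptors detect bitter compounds, and both use gustducin (Gnat3), Plcb2, Itpr3 and Trpm5. Taar receptors detect volatile amines in the olfactory epithelium, as odorant receptors do for other odours. Most of these genes lie in clusters of related genes, and bone marrow is not a tissue in which they are classically studied.

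The sequences around the annotated starts are shown for the 4 vomeronasal receptor genes called different between the ages, for the bitter receptor gene Tas2r109, and for the sweet and umami co-receptor gene Tas1r3, because they show how RefSeq draws these genes: 5 of the 6 annotations begin at the start codon itself, without an untranslated leader. Each stretch is the RefSeq window on GRCm38.p6, printed 5′ to 3′ on the gene's strand with 100 bases before the annotated start and, except for Tas1r3, 30 from it onward, and the capitals mark the ATG at the annotated start.
Vmn1r217: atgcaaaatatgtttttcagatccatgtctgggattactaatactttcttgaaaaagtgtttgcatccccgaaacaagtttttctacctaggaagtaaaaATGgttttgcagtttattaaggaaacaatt
Vmn1r173: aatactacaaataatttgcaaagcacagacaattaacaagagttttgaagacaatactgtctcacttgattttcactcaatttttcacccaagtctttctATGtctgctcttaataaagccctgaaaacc
Vmn1r87: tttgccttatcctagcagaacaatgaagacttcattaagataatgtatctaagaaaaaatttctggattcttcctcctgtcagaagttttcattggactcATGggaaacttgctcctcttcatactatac
Vmn2r62: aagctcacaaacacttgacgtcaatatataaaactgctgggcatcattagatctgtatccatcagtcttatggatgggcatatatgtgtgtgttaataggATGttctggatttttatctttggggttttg
Tas2r109: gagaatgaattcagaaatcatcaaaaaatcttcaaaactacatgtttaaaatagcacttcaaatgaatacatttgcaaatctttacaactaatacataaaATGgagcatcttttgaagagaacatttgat
Tas1r3: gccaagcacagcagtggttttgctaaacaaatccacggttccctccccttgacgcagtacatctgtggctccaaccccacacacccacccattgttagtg
The Vmn1r217 window lies at chr13:23114701-23114830 on the minus strand, that of Vmn1r173 at chr7:23702242-23702371 on the plus strand, and those of Vmn1r87 at chr7:13132329-13132458 and Vmn2r62 at chr7:42793467-42793596 on the minus strand. The Tas2r109 window covers chr6:132980936-132981065 and the Tas1r3 window chr4:155863354-155863453, both on the minus strand. Of the 53 receptor genes, 50 matched a RefSeq window, and in 40 of these (80.0%) an ATG stood at the annotated start. The share was 86.2% (194 of 225 windows) for the receptor genes that did not meet the detection condition, 72.5% for olfactory receptor genes and 5.83% over all windows, so most receptor genes, detected or not, were annotated from the start codon. The median GC content of the 250 bases before the start was 37.6% for the 53 genes and 36.4% for the other receptor genes. It was 34.0% for olfactory receptor genes and 52.4% over all windows. The letters TATAAA occurred on either strand of the 250 bases before the start in 38.0% of the 50 windows, in 30.7% of those of the other receptor genes, in 38.8% of those of olfactory receptor genes and in 12.4% of all windows.

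The values are processed signals, which are spot brightnesses after background subtraction within each array. They were set on a log2 scale relative to the 75th percentile of each array, which was 376, 393 and 315 in young samples and 318, 250 and 229 in old samples, so the old arrays were dimmer on the whole. All 6 arrays shared 1 slide, and the young samples lay in one row of it and the old samples in the other, so slide row and age cannot be told apart. The sorted cells carried blood cell genes: all 15 genes of a leukocyte list were detected well enough to be tested, 8 of them fell with age (4.04% of all genes were called lower), and their summed signal ranged from 48665 to 68090 in young and from 19154 to 29450 in old samples. The label was borne out by only some of 15 mesenchymal stroma markers. Lepr, Cxcl12, Thy1, Eng and Vcam1 were on all 6 arrays and 8 of the 15 were tested, of which Lepr was called higher in old and Cxcl12, Thy1 and Col1a1 lower, while Pdgfra, Pdgfrb, Prrx1, Grem1, Foxc1 and Twist1 were well above background on 0 arrays. The summed signal of the list was 7987 to 9966 in young and 8162 to 9843 in old samples. The median scaled log2 fold change was -1.37 over its 8 tested genes and -0.98 over the 15 leukocyte genes. The level sum therefore does not describe the typical tested marker. Of 14 sensory neuron markers on the array 5 were tested and 0 were called by limma (7 were on 0 arrays), and of 13 taste and tuft cell markers 7 were tested and 0 called. In bulk RNA fewer cells of a type and less RNA per cell cannot be told apart, and the part of the cell mixture in the receptor values was not tested.

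**Figure D1:**
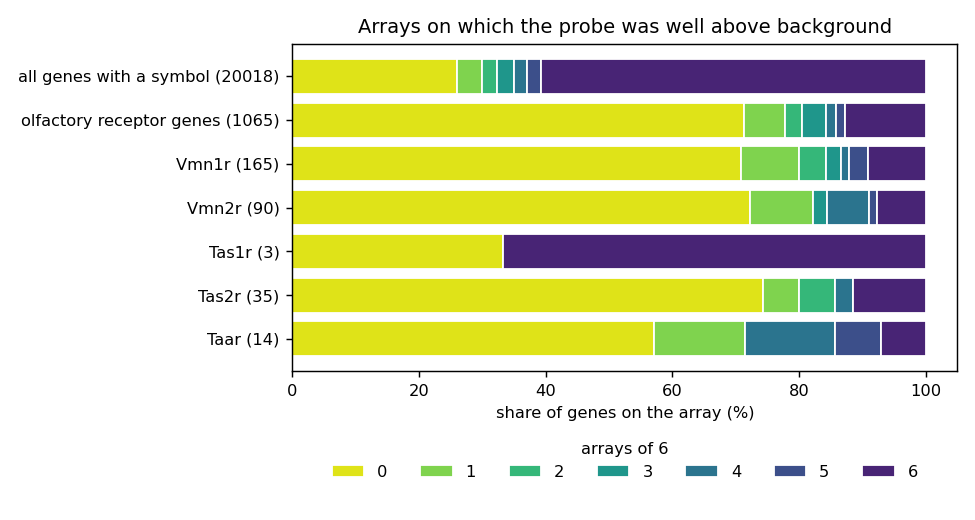
Share of genes (%) by the number of arrays, 0 to 6, on which the chosen probe was well above background, for each receptor family, for olfactory receptor genes and for all genes with a symbol (numbers of genes in brackets). On 0 arrays were 70.7% of all 307 receptor genes, 71.4% of olfactory receptor genes and 26.0% of all genes with a symbol.

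Most receptor genes gave no signal well above background on any array. Of the 307, 217 (70.7%) were on 0 arrays, 28 on 1 array and 9 on 2, while 29 were on all 6, 7 on 5, 11 on 4 and 6 on 3. The 53 kept genes made up 17.3% of the receptor genes, against 19.5% of the 1065 olfactory receptor genes (208) and 67.7% of the 20018 genes with a symbol, so the receptor families were detected about as often as the odorant receptors and far less often than genes in general. Vmn1r gave 26 of 165 genes (15.8%), Vmn2r 16 of 90 (17.8%), Tas2r 5 of 35 (14.3%), Taar 4 of 14 (28.6%) and Tas1r 2 of 3. By chromosome, the Vmn1r genes came from chromosome 7 (12 of 65 on the array), chromosome 13 (7 of 35), chromosome 6 (5 of 50) and chromosome 17 (2 of 14). All 5 Tas2r genes came from chromosome 6, all 4 Taar genes from chromosome 10 and both Tas1r genes from chromosome 4. The number of receptor genes well above background was 67, 61 and 50 in young and 45, 51 and 43 in old samples, and the groups overlapped. On the same arrays 60.0%, 59.8% and 55.2% of all probes in young and 53.4%, 52.9% and 50.9% in old were well above background.

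**Figure D2:**
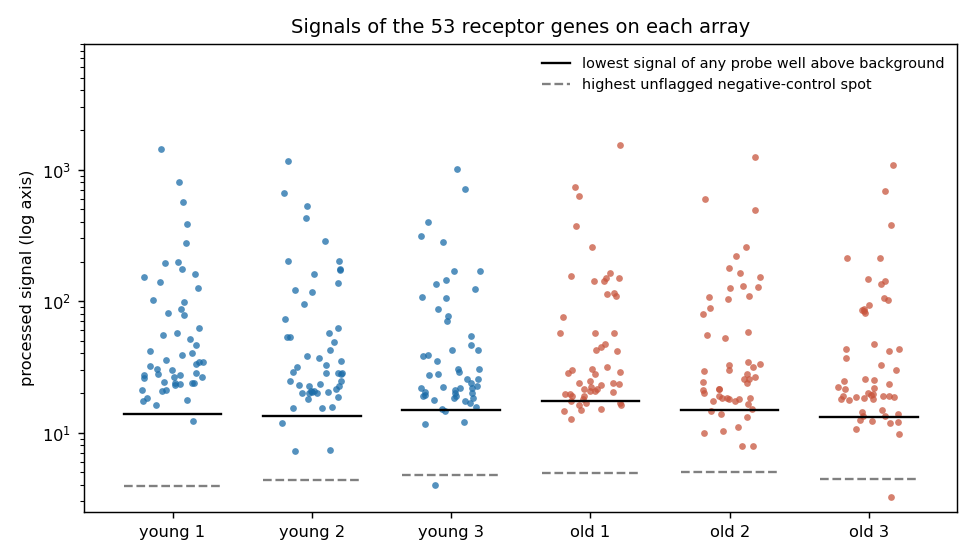
Processed signal (log axis) of the 53 receptor genes on each of the 6 arrays, 1 point a gene. The solid line is the lowest signal that the software called well above background on that array (13.2 to 17.4), and the dashed line the highest negative-control spot that was not marked as an outlier (3.95 to 5.04); most points sit just above the solid line.

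Most of the 53 genes were dim. Their mean signals ran from 16.1 to 1248 with a median of 27.7; 36 lay under 50 and 12 over 100, where the lowest signal called well above background was 13.2 to 17.4 depending on the array. Brightness depends on the probe as well as on the transcript, so the order of these signals is not an order of transcript levels. Just inside the limit stood Vmn1r168, with signals of 17.8, 22.5 and 15.1 in young and 12.6, 17.9 and 13.8 in old, and Vmn1r151, with 26.1, 15.3 and 19.5 in young and 16.2, 11.0 and 11.99 in old, each on 3 arrays. Just outside it, on 2 arrays each, stood Vmn1r178, with 11.0, 15.4 and 11.1 in young and 10.498, 8.69 and 32.1 in old, and Vmn1r131, with 12.9, 20.2 and 9.70 in young and 16.5, 12.1 and 16.1 in old. The signals on both sides of the limit overlapped. Of the 6 genes on exactly 3 arrays, Vmn1r151 and Vmn2r43 were detected on the 3 young arrays only and Vmn2r62 on the 3 old arrays only, and the other 3 mixed the ages. Detection in only 1 group favours a difference, so the difference of such a gene describes the choice as well as the ages. Vmn1r151 still overlapped between the ages: 15.3 in young sample 2 was well above background and 16.2 in old sample 1 was not. The lowest signals so called on those 2 arrays were 13.3 and 17.4. Vmn2r43, picked out after its values were seen, had 21.2, 24.7 and 21.7 in young and 19.1, 7.90 and 12.4 in old, at least 1.06-fold lower in old (adjusted p = 0.326, limma).

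**Figure D3:**
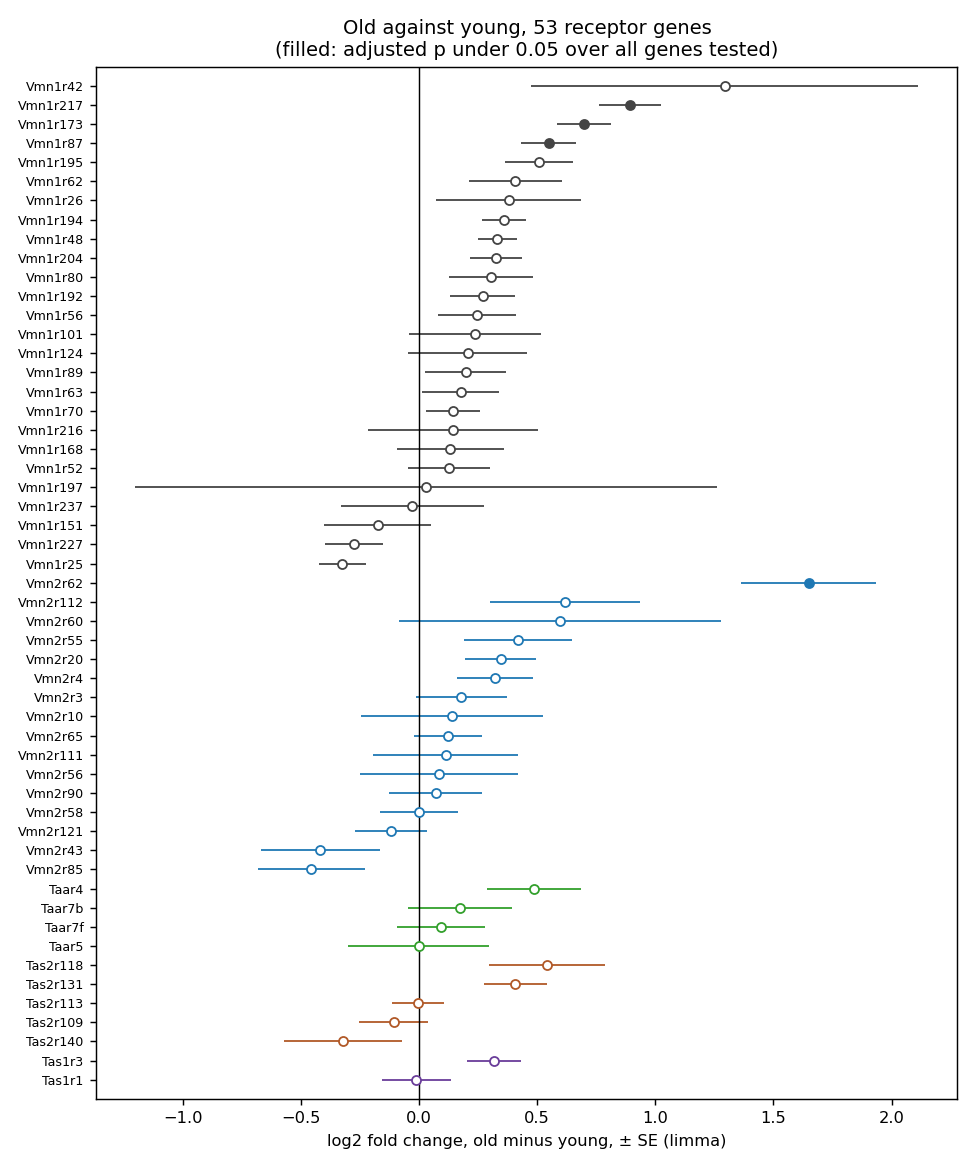
Log2 fold change, old minus young, with its standard error from limma, for the 53 receptor genes grouped by family (grey Vmn1r, blue Vmn2r, green Taar, brown Tas2r, purple Tas1r). Filled points are the 4 genes with an adjusted p under 0.05 over all genes tested; all 4 lie to the right of 0.

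The comparison of old with young asked whether the receptor signals differed with age. After scaling to the 75th percentile 4 of the 53 genes (7.55%) were called at an adjusted p under 0.05 (limma, Benjamini-Hochberg over 23251 genes), all higher in old: Vmn1r217, Vmn1r173, Vmn1r87 and Vmn2r62. The last of these was detected on old arrays only. Over all genes tested 8.5% were called, 4.46% higher and 4.04% lower, so the share of receptor genes called was near the background. At an unadjusted p under 0.05 stood 12 of the 53 receptor genes, 11 higher and 1 lower. Over all 23251 genes 6759 stood there, 4373 higher and 2386 lower. On the scaled values 40 of the 53 fold changes were above 0 with a median of 0.18, beside a median of 0.08 over all genes and 0.22 over the 208 olfactory receptor genes, of which 16 were called, 15 of them higher; without scaling only 10 of the 53 were above 0. The unscaled mean signal was lower in old for 44 of the 53 genes, with a median ratio of old to young of 0.844, and for 20806 of the 23251 genes, with a median ratio of 0.778. In log2 terms, leaving out the scaling moved the median of all genes from 0.08 to -0.37 and that of the receptor genes from 0.18 to -0.27. The receptor genes' higher median thus describes a smaller drop in brightness than that of the median gene. Among genes of similar brightness the median log2 fold change was -0.00 over all 1923 genes under 25 and 0.14 over the 23 receptor genes there, and 0.08 over 3146 genes and 0.14 over 13 receptor genes from 25 to 50. From 50 to 100 it was 0.12 over all genes and 0.41 over 5 receptor genes, and from 100 to 200 0.08 and 0.27 (7 receptor genes). From 200 to 500 it was 0.07 and 0.07 (2 receptor genes), and from 500 to 2000 0.05 and 0.55 (3 receptor genes). The scaled groups did not overlap for 11 receptor genes higher in old (20.8%) and for 1 lower (1.89%), where over all genes the shares were 25.1% and 12.2%, or 37.3% in all. Without scaling 2 receptor genes lay apart and higher in old and 6 lower, beside 1.6% and 29.4% of all genes. The spread within a group had a median SD of 0.26 (log2) over the 53 genes and of 0.19 over the 29 on all 6 arrays, against 0.16 over all genes tested.

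**Figure D4:**
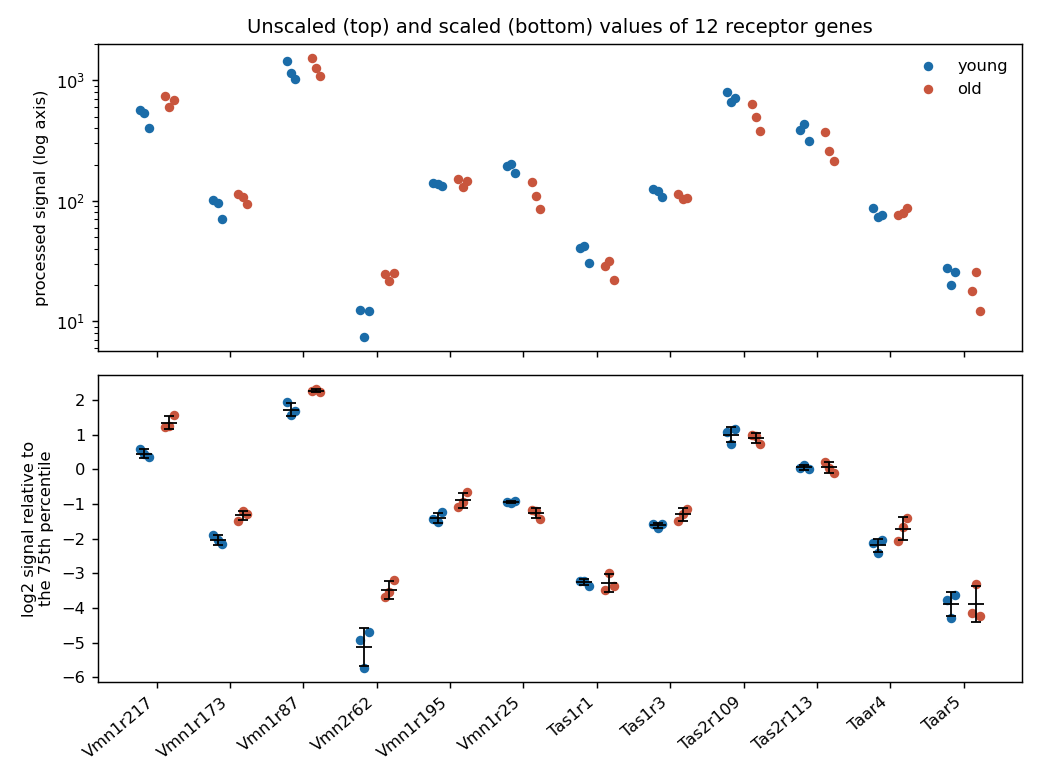
Values of 12 receptor genes on each array, blue for the 3 young and red for the 3 old samples, with the processed signal on a log axis above and the scaled log2 signal below (black bars, mean ± SD, n = 3). Vmn1r217 and Vmn2r62 lie higher in every old sample in both panels, while Vmn1r87 and Vmn1r173 overlap between the ages before scaling.

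Vmn1r217 (NM_134239, chromosome 13), a V1R receptor gene, had signals of 568, 532 and 401 in young and 739, 600.3 and 686 in old. Every old sample was above every young one even without scaling. The log2 fold change was 0.89 ± 0.13 (SE, n = 3 a group; adjusted p = 0.0252, limma). A second probe of this gene, on 4 arrays, had 36.9, 31.1 and 14.2 in young and 31.4, 22.8 and 18.3 in old, overlapping, with a scaled difference of 0.34 ± 0.29 (unadjusted p = 0.276, limma over all probes detected). Vmn1r173 (NM_001166718, chromosome 7) had signals of 102, 95.4 and 70.5 in young and 114, 108 and 93.3 in old. The unscaled groups overlapped, and after scaling all 3 old samples were higher, by 0.70 ± 0.12 (adjusted p = 0.0283, limma). Vmn1r87 (NM_134227, chromosome 7), the brightest of the 53 probes, had 1438, 1159 and 1017 in young and 1533, 1256 and 1083 in old. Its unscaled signals overlapped too, and the scaled difference was 0.55 ± 0.12 (adjusted p = 0.0426, limma). Vmn2r62 (NM_001105059, chromosome 7), a V2R receptor gene, had 12.3, 7.39 and 12.1 in young and 24.7, 21.5 and 25.1 in old. It was not well above background on any young array, so the difference on the scaled values is a bound: at least 2.32-fold higher in old, with a fitted log2 fold change of 1.65 ± 0.29 (adjusted p = 0.0304, limma). The ratio of the unscaled mean signals was 2.24, and the fitted value was 1.20 without scaling and 0.70 with normexp. A second Vmn2r62 probe was well above background on 0 arrays. The gene entered the set only through the old samples, so its p-values rest on values that also chose it. Whether the 4 genes passed the threshold depended on the samples used. Leaving out young sample 2, young sample 3, old sample 2 or old sample 3 left 0 of the 53 genes called by limma (10, 9, 8 and 9 at an unadjusted p under 0.05). Leaving out young sample 1 left 3 and leaving out old sample 1 left 2. Over all 23251 genes these fits called 75, 298, 1, 0, 836 and 1269 in the same order, beside 1977 with all samples. The log2 fold changes in these fits were 0.78 to 0.96 for Vmn1r217 and 0.63 to 0.77 for Vmn1r173. They were 0.47 to 0.65 for Vmn1r87 and 1.34 to 1.86 for Vmn2r62. Without scaling, with all samples, Vmn1r217 differed by 0.44 (adjusted p = 0.207, limma) and Vmn1r173 by 0.25 (adjusted p = 0.428, limma). Vmn1r87 then differed by 0.10 (adjusted p = 0.747, limma), so the size of these differences depended on the scaling.

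The other bright vomeronasal receptor genes did not pass the adjusted threshold. Vmn1r25 was the gene that lay lower in old with groups apart: its signals were 194, 203 and 169 in young and 142, 109 and 85.9 in old. Young and old did not overlap before or after scaling, and the log2 fold change was -0.32 ± 0.10 (adjusted p = 0.0933, limma). Vmn1r195 had 139, 137 and 134 in young and 151, 129.7 and 147 in old, a near-level signal on dimmer arrays that gave a scaled difference of 0.51 ± 0.14 (adjusted p = 0.0814, limma). The signals of Vmn1r204 were 152, 175 and 123 in young and 149.6, 127 and 134 in old, and those of Vmn1r192 were 160.4, 203 and 169.7 in young and 164, 162 and 143 in old, overlapping in both genes. Their scaled differences were 0.33 (adjusted p = 0.121, limma) and 0.27 (adjusted p = 0.250, limma). Vmn1r70 had 278, 289 and 284 in young and 258, 219.9 and 213 in old; all old samples were dimmer, and scaling turned this into a difference of 0.15 (adjusted p = 0.447, limma). Vmn2r3, of the V2R group that is co-expressed with other V2R receptors, had 198, 174 and 143 in young and 154, 178 and 102 in old, and differed by 0.18 (adjusted p = 0.579, limma). Among genes picked out after their values were seen, Vmn1r48 and Vmn1r194 stood closest to the threshold, at 0.33 (adjusted p = 0.0626, limma) and 0.36 (adjusted p = 0.0672, limma). Vmn1r42 and Vmn1r197, picked out in the same way, showed the widest spread. Vmn1r42 gave 154 on the array of old sample 2 and 20.0 to 26.5 on the other 5, so that its difference of 1.29 ± 0.82 (adjusted p = 0.346, limma) rested on 1 sample. Vmn1r197 gave 81.4, 18.1 and 3.99 in young and 41.5, 18.2 and 3.25 in old, a wide range within each age and a difference of 0.03 ± 1.23 (adjusted p = 0.990, limma).

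Of the taste receptor genes, 0 of 7 were called by limma (1 Tas2r and 1 Tas1r gene had an unadjusted p under 0.05). Tas1r3, the shared subunit of the sweet and umami receptors, had 125, 121 and 106.7 in young and 114, 103 and 105 in old. The old signals were slightly lower before scaling and the scaled values slightly higher, by 0.32 ± 0.11 (adjusted p = 0.133, limma). Its umami partner Tas1r1 had 40.6, 42.4 and 30.7 in young and 28.7, 31.8 and 22.2 in old, with a scaled difference of -0.01 ± 0.15 (adjusted p = 0.970, limma). Tas1r2, the sweet partner, was well above background on 0 arrays, with signals of 9.77 to 14.5. The bitter receptor genes Tas2r109 and Tas2r113 had the brightest probes of their family: Tas2r109 gave 802, 661 and 715 in young and 632, 493 and 382 in old, and Tas2r113 gave 388, 431 and 315 in young and 372, 260.0 and 213 in old. Tas2r109 was lower in every old sample before scaling; after it the groups overlapped, with differences of -0.11 ± 0.14 for Tas2r109 (adjusted p = 0.663, limma) and -0.00 ± 0.11 for Tas2r113 (adjusted p = 0.990, limma). Tas2r131 had 62.9, 53.4 and 42.5 in young and 57.2, 55.3 and 41.4 in old, overlapping before scaling and differing by 0.41 ± 0.13 after it (adjusted p = 0.112, limma). Tas2r118 (23.1, 29.2 and 25.5 in young; 23.9, 26.6 and 32.8 in old) and Tas2r140 (23.8, 20.0 and 22.7 in young; 22.3, 9.96 and 9.76 in old) were close to the limit of detection. Their scaled differences were 0.54 ± 0.25 (adjusted p = 0.207, limma) and -0.32 ± 0.25 (adjusted p = 0.439, limma).

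Of the 4 trace amine-associated receptor genes 0 were called by limma, and 1 had an unadjusted p under 0.05. Taar4, a receptor for phenylethylamine in the mouse, was on all 6 arrays, with 86.5, 73.6 and 76.6 in young and 75.6, 79.5 and 87.5 in old. The unscaled groups covered nearly the same range, and the scaled difference was 0.49 ± 0.20 (adjusted p = 0.169, limma). Taar5, a mouse receptor for trimethylamine, had 27.8, 20.2 and 25.5 in young and 17.99, 25.5 and 12.2 in old, a difference of -0.00 ± 0.30 (adjusted p = 0.998, limma). Taar7b had 27.7, 24.7 and 19.0 in young and 16.9, 20.1 and 21.4 in old, and Taar7f 17.4, 20.1 and 17.4 in young and 20.8, 10.38 and 13.4 in old. Both were dim and overlapped between the ages, with differences of 0.17 ± 0.22 (adjusted p = 0.640, limma) and 0.09 ± 0.18 (adjusted p = 0.772, limma).

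The genes through which these receptors signal were measured on the same arrays. Of 63 genes on the array from lists of vomeronasal, taste and amine receptor transduction and of receptor chaperones, 36 were tested; 2 were higher in old, 2 lower (11.1% called, beside 8.5% of all genes), and the median log2 fold change was 0.07. Without scaling 0 were higher and 5 lower, and the median was -0.38, beside -0.37 over all genes. Rtp1, a chaperone that brings odorant receptors to the cell surface, was higher by 0.84 ± 0.14 (adjusted p = 0.0289, limma), and Pkd1l3, a polycystin family channel protein of taste cells, by 0.50 ± 0.10 (adjusted p = 0.0421, limma). Itpr3, the inositol trisphosphate receptor of taste cells and of many others, fell by 0.87 ± 0.12 on the log2 scale (adjusted p = 0.0227, limma), and Scnn1a, a subunit of the epithelial sodium channel, fell by 1.95 ± 0.40 (adjusted p = 0.0410, limma). Rtp1 was dim, with signals of 16.5 to 33.6 that overlapped between the ages before scaling. Without scaling Rtp1 differed by 0.39 (adjusted p = 0.277, limma) and Pkd1l3 by 0.05 (adjusted p = 0.872, limma), Itpr3 by -1.32 and Scnn1a by -2.40. Scnn1a was not well above background on all 6 arrays, and with normexp it differed by -0.85. Of the alternatives, 10 of 15 called Itpr3, 4 of 15 Pkd1l3, and 6 of 14 each Rtp1 and Scnn1a. Leaving out young sample 2, old sample 2 or old sample 3 left 0 of the 36 called by limma (7, 7 and 9 at an unadjusted p under 0.05), leaving out young sample 3 left 1, and leaving out young sample 1 or old sample 1 left 2. Of the genes on the array, 13 of 25 in the vomeronasal list, 14 of 23 in the taste list and 10 of 17 in the amine and odorant list were tested, and 10, 7 and 5 were on 0 arrays. Gnat3 and Adcy3 were on 0 arrays, Gnao1 on 1 and Trpm5 on 2. For Trpc2 no probe was matched here. Plcb2, which blood cells express too, was on 4 arrays (-0.65 ± 0.19, adjusted p = 0.0866, limma). Of 14 alternatives 3 called Plcb2 lower in old, while with normexp it differed by 0.06 (adjusted p = 0.677, limma). On all 6 arrays were Gnai2, a G protein subunit of most blood cells (0.19 ± 0.14, adjusted p = 0.397, limma), the olfactory marker protein gene Omp (0.04 ± 0.19, adjusted p = 0.905, limma) and the olfactory channel gene Cnga2 (0.12 ± 0.16, adjusted p = 0.671, limma). Of 5 H2-M10 genes on the array, whose products accompany V2R receptors, 0 were detected on any array.

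Where a receptor gene had another probe, that probe rarely gave a signal. Among the 53 genes 11 had a second probe; it met the detection condition for 1 of them (9.09%), Vmn1r217, and on 0 arrays for the other 10 (90.9%). Over all tested genes with a symbol and a further probe, 75.8% of further probes were detected and 18.6% were on 0 arrays. Where the chosen probe had a mean signal under 50 the shares were 19.1% and 65.8%, and for olfactory receptor genes 1 of 27 further probes (3.70%) was detected and 19 (70.4%) were on 0 arrays. Whether probes of related receptor genes bind each other's transcripts, or those of genes nearby, was not tested, since the probe sequences were not used here.

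In the RefSeq annotation 33 of the 53 genes had another receptor gene of these families as the next protein-coding gene on both sides, as had 179 of the 254 receptor genes that did not meet the detection condition. Of the 53, 6 overlapped any annotated gene, and only Tas1r3 overlapped a protein-coding gene, Dvl1, a Wnt signalling adaptor. Dvl1 was on all 6 arrays and differed between the ages by -0.01 ± 0.12 (adjusted p = 0.967, limma), and Cptp, the next protein-coding gene on one side of Tas1r3, by -0.00 ± 0.10 (adjusted p = 0.999, limma). Mxra8, the next on the other side, was well above background on 0 arrays and was not tested. Tas1r1 lies between Zbtb48 (-0.04 ± 0.13, adjusted p = 0.873, limma) and Nol9 (0.43 ± 0.11, adjusted p = 0.0648, limma). Dvl1, Cptp, Zbtb48 and Nol9 did not pass the threshold.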

How the data were processed

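Total RNA of 6 samples was hybridised to 1-colour Agilent arrays and, per the file headers, read with Agilent Feature Extraction 10.7.3.1 (10.5.1.1 per the submitters' processing notes) on probes annotated to mm9. Per the file headers, the authors' deposited intensity is a processed signal, background-subtracted within each array and not scaled between arrays. The authors' deposited table of log2 values (array medians 4.91, 4.92 and 4.95 in young and 4.94, 4.92 and 4.87 in old) was used as an alternative; its values followed the scanner values, with a correlation over probes of 0.9986 to 0.9995 on each array, and its scaling method stays unknown. Probes were tied to genes through RefSeq accessions in a table of assembly GRCm38.p6. Its gene positions served only to find neighbouring and overlapping genes, and the coordinates printed are those of the RefSeq sequence windows on that assembly, not of the array's mm9 design.

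From the files, log2 signals minus the log2 of each array's 75th percentile over unflagged spots were fitted in R 4.3.3 with limma 3.58.1 over 23251 genes (1 probe a gene, well above background on at least 3 of 6 arrays), with Benjamini-Hochberg adjustment and a threshold of 0.05. A bound replaced the fold where a group had no array well above background. Array signals carry no read depth, and the number of arrays limits the precision. The test was checked on simulated data. Alternatives were no filter, a filter on all 6 arrays, each sample left out, a replicate block, quantile and cyclic loess normalization, normexp (offset 50, on median signals because the files hold no mean signals), the deposited table and the mean of a gene's probes; no scaling between arrays was added after seeing the data. Named were all taste and amine receptor genes, the 8 vomeronasal genes with the highest mean signal, every called gene, 2 genes on each side of the detection limit, and the called and core transduction genes. The members and lists were chosen with earlier results of these data known.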

Additional observations from a re-analysis of the deposited data

Results flagged for a closer look

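Receptor genes outside the 53 were searched for a signal well above background on a single array and at least 5 times the next highest. Tas2r104 gave 402.6 on the array of old sample 1, Vmn2r48 90.84, Vmn2r73 47.60, Vmn1r220 43.75 and Taar7d 27.65 on the same array. Taar7e gave 121.1, Vmn1r189 67.62 and Vmn2r86 56.18 on the array of old sample 2. These 8 are 2.61% of the 307 receptor genes. Over all 37139 genes on the array 409 (1.101%) met the same condition, 173, 127 and 50 on the old arrays and 10, 20 and 29 on the young ones. Well above background on 1 array were 9.12% of the 307 receptor genes and 4.06% of genes with a symbol. The shares of 2.61% and 1.101% therefore do not compare like with like. Negative-control spots called well above background numbered 8, 5 and 3 on the old arrays and 0, 1 and 1 on the young ones. These counts took in spots marked as outliers, which the receptor signals left out, so they too do not compare like with like. The highest unmarked negative-control spot was 3.95 to 5.04 depending on the array. The lowest signal called well above background was 13.2 to 17.4. The part of the arrays in these single signals was not tested.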

How the results depend on the processing

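Of 1977 genes called (1038 higher, 939 lower), limma called 0 with no filter on dim probes (11939 at an unadjusted p under 0.05), 0 with the replicate block (5697 unadjusted), 3357 with normexp, and 0 to 1269 on leaving out 1 sample. For the 4 receptor genes the counts were 0 with no filter (11 unadjusted), 0 with the replicate block (13 unadjusted), 2 without scaling (Vmn2r62 higher, Vmn2r85 lower) and 0 to 3 on leaving out 1 sample. For the 4 transduction genes they were 0 with no filter, 2 with detection on all 6 arrays, 0 with the block (19 and 8 unadjusted without the filter and with the block) and 0 to 2 on leaving out 1 sample. The cause was not tested. Normexp called 6 receptor genes. Quantile, cyclic loess and the deposited table called 3, without Vmn1r87, and the mean of probes 3, without Vmn1r217. The calls split into 742 higher and 902 lower with quantile, 652 and 904 with cyclic loess, 598 and 939 with the deposited table, 2297 and 1060 with normexp, and 26 and 2281 without scaling. Detection on all 6 arrays leaves 29 receptor genes, and the software's other flag, positive and significant, 135. Of the alternatives, 7 of 15 called Vmn1r217, 8 of 15 Vmn1r173, 4 of 15 Vmn1r87 and 6 of 14 Vmn2r62. Same-numbered samples did not deviate together (r of -0.03, 0.02 and -0.01), and no sample correlated best with its own number, so the numbers were not used as pairs. Dim probes, close to the detection limit, bound what 3 arrays a group can show.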
